A study of Mus musculus with 58 samples.

Results

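The genes described here are 10 markers of vascular smooth muscle cells and pericytes, the mural cells that wrap blood vessels, in ribosome-bound mRNA of mouse brown, beige and white adipocytes. They were chosen by name: Acta2, Myh11, Tagln, Cnn1 and Mylk for the contractile machinery, and Pdgfrb, Notch3, Rgs5, Cspg4 and Mcam for receptors, signalling and surface proteins. Of the 10 names 9 matched 1 row each in a table of 11603 rows, every one of them with values in all 22 libraries, and Cnn1 was not analysed here. All mice were C57BL/6J and carried NuTRAP, a GFP tag that a Cre recombinase switches on in chosen cells so that an antibody can pull down their ribosomes with the bound mRNA. Mice of either an Ucp1-NuTRAP or an Adipoq-NuTRAP line were used, with names that point to Cre driven by the uncoupling protein gene of thermogenic adipocytes and by the adiponectin gene of all adipocytes, but the line behind each library is not stated. Libraries of interscapular brown fat came from mice after 1 week at 4 °C (cold brown, n = 5) or after a further 4 weeks at 30 °C (warm brown, n = 5). Libraries of inguinal fat came from mice after the same cold week (cold beige, n = 4), after the same rewarming (warm beige, n = 3), or from mice born and kept at 30 °C (warm white, n = 5). The labels call each library a biological replicate without tying it to an animal, so p-values measure the spread between libraries, and animals may be shared between depots.

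Smooth muscle cells ring the arteries and contract, while pericytes sit on capillaries within the same basement membrane as the endothelium. Endothelial cells hold both by secreting PDGF-B, which binds the receptor Pdgfrb on mural cells, and by presenting Notch ligands to Notch3. Contractile genes are switched on by serum response factor with its coactivators of the myocardin family, through a DNA element called the CArG box. In fat, cells of the vessel wall are also known as a place where preadipocytes are found, and several of these genes are active in more than one cell type.

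In GRCm38.p6 the genes lie at chromosome 19, 34240336 to 34255585 (Acta2, uc008hgg.2), chromosome 16, 14194527 to 14292188 (Myh11, uc007yhd.2), chromosome 9, 45929628 to 45936058 (Tagln, uc009pgs.2) and chromosome 16, 34745199 to 35002436 (Mylk, uc007zbd.1). Notch3 (uc008bvx.1) lies at chromosome 17, 32120820 to 32166896, and Rgs5 (uc007dlm.2) at chromosome 1, 169655501 to 169695813. Cspg4 (uc009ptm.1) lies at chromosome 9, 56865104 to 56899870, and Mcam (uc009pbw.2) at chromosome 9, 44134658 to 44142727. Each row is 1 gene model, and isoforms are not told apart.

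RefSeq sequence before the start site in GRCm38.p6 was used here for 7 of the 10 genes, all except Myh11, Tagln and Pdgfrb. Acta2 is shown first because, of the 3 contractile genes with such sequence, it alone held CArG-like sites, while Cnn1 and Mylk held 0. Allowing 1 mismatch to the CArG box, which reads the same on both strands, the 250 bases before the Acta2 start at base 34255373 held 2 such sites, the second 50 bases after the first, and none without a mismatch. Cspg4, which is not a contractile gene, also held 2, overlapping each other, and Notch3, Rgs5 and Mcam held 0. Of 32851 RefSeq windows of that length 18.6% held a site with at most 1 mismatch, and 1.47% held an exact one. The minus-strand stretches chr19:34255438-34255467 and chr19:34255388-34255417 follow 5′ to 3′, with the CArG-like sites in capitals.
Acta2 first site: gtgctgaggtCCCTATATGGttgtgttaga
Acta2 second site: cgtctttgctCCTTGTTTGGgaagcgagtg

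The next 4 stretches, from 120 to 7 bases before the start site, are shown because these 4 genes had different orders of groups in the values that follow. Capitals mark the GC box, GGGCGG or its reverse complement CCGCCC, which 25.4% of the RefSeq windows over the same positions held, and no capitals overlap. Notch3 held 4, Mcam 5, Cspg4 2 and Rgs5 none, which describes the letters only. The stretches are chr17:32166897-32167010 on the minus strand for Notch3, and on the plus strand chr1:169655381-169655494 for Rgs5, chr9:56864984-56865097 for Cspg4 and chr9:44134538-44134651 for Mcam.
Notch3: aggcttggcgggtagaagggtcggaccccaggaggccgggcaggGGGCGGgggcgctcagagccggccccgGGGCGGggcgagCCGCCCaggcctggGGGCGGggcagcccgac
Rgs5: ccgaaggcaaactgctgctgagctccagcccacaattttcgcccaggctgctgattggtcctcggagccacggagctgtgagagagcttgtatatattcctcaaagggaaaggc
Cspg4: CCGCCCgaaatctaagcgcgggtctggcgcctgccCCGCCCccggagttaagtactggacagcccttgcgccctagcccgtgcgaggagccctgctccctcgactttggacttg
Mcam: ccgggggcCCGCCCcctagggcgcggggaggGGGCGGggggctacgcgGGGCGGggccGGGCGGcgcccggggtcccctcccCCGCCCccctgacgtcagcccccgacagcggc

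Levels are given in log2 CPM as deposited, where 1 unit is a doubling, and levels of different genes are not compared because CPM is not divided by length. Depth is unknown, and the antilogs of each library summed to 0.859 to 1.10 times the nominal total. The labelled cell type was checked on 12 adipocyte markers, all of them measured, whose summed level ran from 15612 to 25435 CPM over the 22 libraries with no marker at the floor of -5 log2 CPM. In the same libraries the 9 mural genes summed to between 166.85 and 1317.2 CPM. In warm white this sum was mostly Mcam (mean 515.93 CPM) and Cspg4 (172.07 CPM), while the 4 measured contractile genes summed to 22.947 to 61.278 CPM. In bulk libraries fewer cells of a type and less RNA per cell cannot be told apart. In what follows, "in beige cells" and "in brown cells" stand for the beige and brown libraries. Whether the mRNA of a mural gene came from tagged adipocytes or from other cells was not tested.

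Before any comparison, 4 cold libraries stood apart. Cold brown 1 and 5 lay above cold brown 2, 3 and 4 in 8 of the 9 genes, all except Mylk, against 14.9% of all rows. In cold brown 1 and 5 the mean exceeded that of the other 3 by 4.61 log2 units for Acta2, 2.98 for Rgs5, 2.70 for Pdgfrb, 2.69 for Myh11, 2.10 for Notch3 and 1.58 for Tagln, and by only 0.34 for Cspg4, while the median over all rows was 0.01. The same libraries held more endothelial mRNA: 18 measured endothelial markers summed to 264.49 and 255.44 CPM in cold brown 1 and 5 and to between 76.938 and 89.287 CPM in the other 3. Cold beige 1 and 4 likewise lay above cold beige 2 and 3 in 8 of the 9 genes, all except Mcam, against 13.2% of all rows, by 2.48 log2 units for Acta2 and 2.15 for Rgs5. Their endothelial sums were 445.65 and 518.07 CPM against 239.79 and 276.72 CPM. These 4 libraries were singled out after their values were seen, so the counts describe them, and values without them stand beside the results they moved most. Leaving out cold libraries in which a gene is high raises its warm minus cold difference by the choice itself. Calls and p-values without them are therefore descriptions and not tests.

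**Figure D1:**
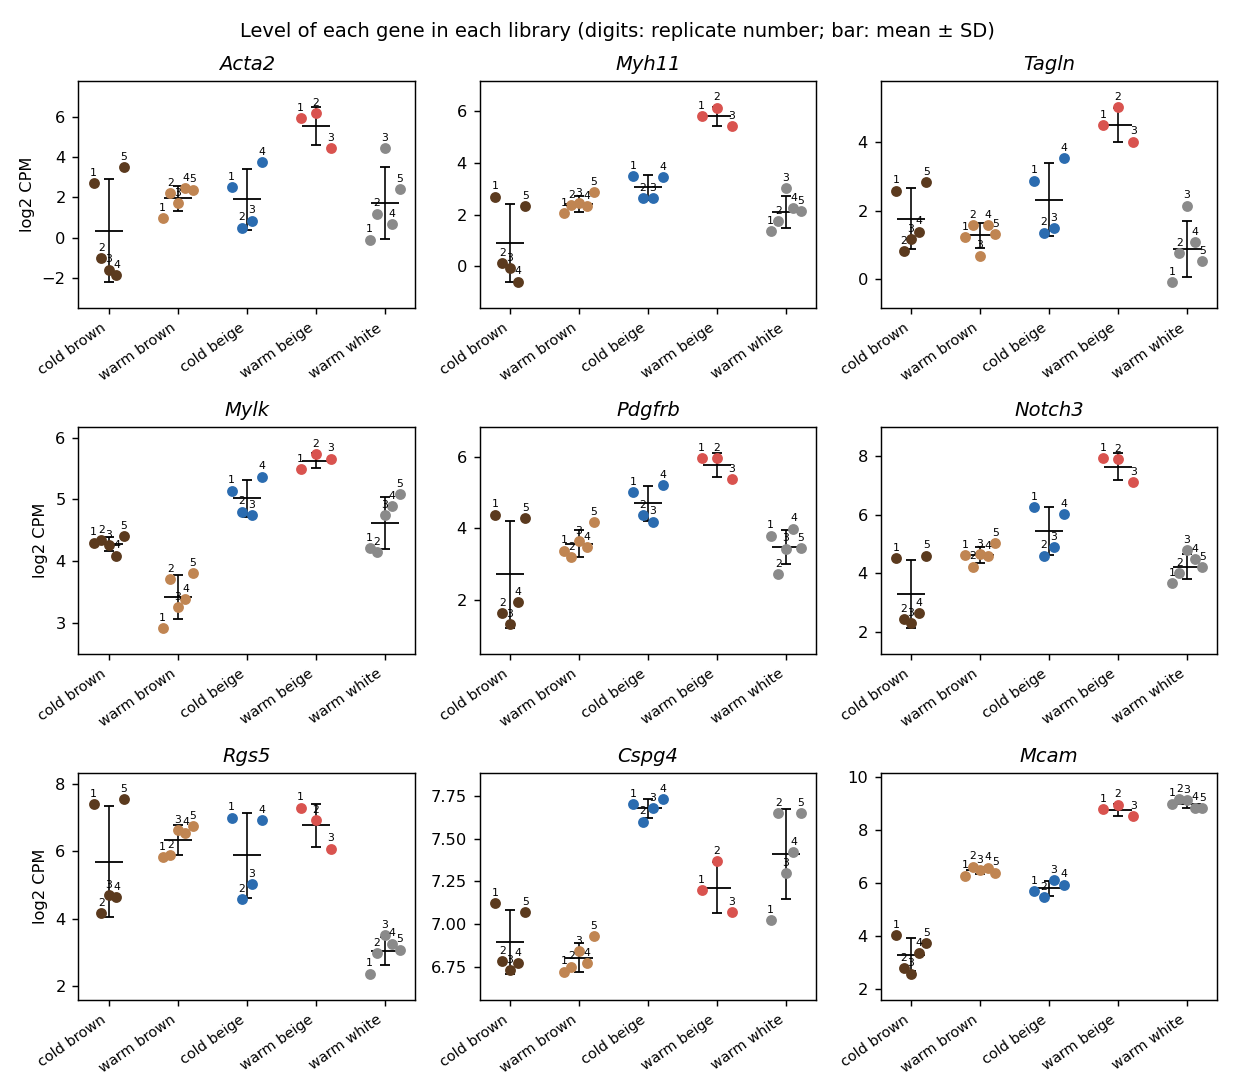
Level of each of the 9 mural genes in every library, in log2 CPM (vertical axes, which differ between panels), by group (horizontal axes); digits are replicate numbers, and black bars are the group mean ± SD (n = 5, 5, 4, 3 and 5 from left to right). Cold brown 1 and 5 stand above cold brown 2, 3 and 4 in every panel except Mylk, and the warm beige libraries lie above every cold beige library in 7 panels.

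Acta2 encodes smooth muscle alpha-actin, the main thin filament of contractile mural cells and of activated fibroblasts. Its level was 2.70, -1.04, -1.60, -1.87 and 3.51 log2 CPM in cold brown 1 to 5, and 0.97, 2.20, 1.72, 2.45 and 2.39 in warm brown 1 to 5. In inguinal fat it was 2.53, 0.49, 0.84 and 3.76 in cold beige 1 to 4, 5.97, 6.21 and 4.47 in warm beige 1 to 3, and -0.11, 1.19, 4.44, 0.66 and 2.41 in warm white 1 to 5. The warm beige libraries were the highest, with warm white 3 falling just below the lowest of them, and the other 4 groups overlapped one another. Acta2 rose 12.5-fold in beige libraries on warming (log2 fold change 3.65 ± 1.14, SE; limma, adjusted p = 0.00691), and by 4.89 ± 1.33 without cold beige 1 and 4. In brown libraries the difference was 1.61 ± 0.95 (limma, adjusted p = 0.133). Without cold brown 1 and 5, chosen after their values were seen, it was 3.45 ± 0.79.

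Myh11, the myosin heavy chain held to be the most specific marker of differentiated smooth muscle, stood at 2.70, 0.13, -0.08, -0.59 and 2.33 log2 CPM in cold brown 1 to 5 and at 2.06, 2.36, 2.46, 2.32 and 2.87 in warm brown. It stood at 3.48, 2.64, 2.64 and 3.47 in cold beige 1 to 4, at 5.83, 6.15 and 5.44 in warm beige, and at 1.36, 1.74, 3.04, 2.27 and 2.14 in warm white. Warm beige lay clear of every other library, and the order below it ran from cold brown through warm white and warm brown to cold beige, with each group overlapping the next. Myh11 rose 6.72-fold in beige cells on warming (2.75 ± 0.57; limma, adjusted p = 0.000184). In brown cells it rose 2.86-fold (1.52 ± 0.47; adjusted p = 0.00673), by 2.59 ± 0.31 without cold brown 1 and 5, but after quantile normalization the difference was 0.68 with adjusted p = 0.111.

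Tagln encodes transgelin, an actin-binding protein abundant early in smooth muscle differentiation. Its values were 2.59, 0.83, 1.18, 1.39 and 2.84 log2 CPM in cold brown, 1.24, 1.59, 0.69, 1.58 and 1.31 in warm brown, and 2.88, 1.36, 1.50 and 3.54 in cold beige. They were 4.49, 5.02 and 4.02 in warm beige and -0.08, 0.77, 2.15, 1.08 and 0.52 in warm white. Only warm beige was apart from the group next to it in the order. Tagln rose 4.56-fold in beige cells on warming (2.19 ± 0.54; limma, adjusted p = 0.000991), and by 3.08 ± 0.56 without cold beige 1 and 4, whereas in brown cells it was at -0.48 ± 0.45 (adjusted p = 0.337) and, without cold brown 1 and 5, at 0.15 ± 0.46. The warming effects differed by 2.67 ± 0.70 (adjusted p = 0.00321), by 2.04 ± 0.66 without cold brown 1 and 5 (adjusted p = 0.0169) and by 3.56 ± 0.69 without cold beige 1 and 4.

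Mylk encodes myosin light chain kinase, which starts contraction by phosphorylating the regulatory light chain and is made in many cell types. Its levels were 4.30, 4.34, 4.26, 4.09 and 4.40 log2 CPM in cold brown and 2.92, 3.71, 3.25, 3.38 and 3.81 in warm brown, which did not overlap. In inguinal fat they were 5.14, 4.80, 4.75 and 5.37 in cold beige, 5.49, 5.73 and 5.66 in warm beige, and 4.21, 4.15, 4.75, 4.89 and 5.09 in warm white. Mylk fell by 0.86 ± 0.18 log2 units in brown cells on warming (limma, adjusted p = 0.000153) and rose by 0.61 ± 0.21 in beige cells (adjusted p = 0.0136). The difference of these effects was 1.48 ± 0.28 (adjusted p = 0.000136). Its cold brown libraries spanned 0.31 units with cold brown 1 and 5 among the rest, unlike the other contractile genes.

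Pdgfrb (uc008fbk.2; chromosome 18, 61045127 to 61085067), the receptor through which PDGF-B recruits pericytes, was at 4.38, 1.62, 1.32, 1.94 and 4.27 log2 CPM in cold brown 1 to 5 and at 3.37, 3.20, 3.63, 3.47 and 4.17 in warm brown. It was at 5.01, 4.36, 4.18 and 5.21 in cold beige, 5.96, 5.96 and 5.38 in warm beige, and 3.79, 2.71, 3.43, 3.99 and 3.45 in warm white. Both beige groups lay above every warm brown and warm white library, with warm brown 5 only just below the lowest cold beige library. The warm beige libraries did not overlap with cold beige, yet the difference of 1.08 ± 0.55 missed the threshold (limma, adjusted p = 0.0846). It passed when only these 2 groups were fitted (adjusted p = 0.00374) and in 5 other alternatives named in the closing section. In brown libraries the difference was 0.86 ± 0.46 (limma, adjusted p = 0.0962). Without cold brown 1 and 5, chosen after their values were seen, it was 1.94 ± 0.28.

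Notch3 encodes the Notch receptor of vascular smooth muscle and pericytes. It was read at 4.53, 2.44, 2.30, 2.65 and 4.60 log2 CPM in cold brown 1 to 5 and at 4.61, 4.23, 4.66, 4.59 and 5.03 in warm brown. In inguinal fat its values were 6.24, 4.60, 4.90 and 6.02 in cold beige, 7.91, 7.88 and 7.09 in warm beige, and 3.66, 4.01, 4.79, 4.47 and 4.22 in warm white. Warm beige again stood clear, and each lower group overlapped its neighbour. Notch3 rose 4.55-fold in beige cells on warming (2.19 ± 0.49; limma, adjusted p = 0.000371) and 2.50-fold in brown cells (1.32 ± 0.40; adjusted p = 0.0057). Without cold beige 1 and 4 the increase in beige cells was 2.88 ± 0.54, and without cold brown 1 and 5 that in brown cells was 2.16 ± 0.31.

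Rgs5, a regulator of G protein signalling and a classical pericyte marker, had another order. Its levels were 7.41, 4.16, 4.71, 4.65 and 7.56 log2 CPM in cold brown 1 to 5, 5.83, 5.88, 6.62, 6.56 and 6.76 in warm brown, and 7.00, 4.59, 5.02 and 6.92 in cold beige. They were 7.30, 6.93 and 6.08 in warm beige and 2.37, 2.97, 3.51, 3.26 and 3.08 in warm white. Every warm white library lay below every other library, and the other 4 groups overlapped. Cold brown 1 and 5 held the highest Rgs5 values of all 22 libraries. Neither warming effect passed the test, with 0.89 ± 0.69 in beige cells (limma, adjusted p = 0.25) and 0.63 ± 0.57 in brown cells (adjusted p = 0.326). Without cold beige 1 and 4 the beige difference was 1.97 ± 0.74, and without cold brown 1 and 5 the brown difference was 1.82 ± 0.44. These libraries were chosen after their values were seen.

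Cspg4, the NG2 proteoglycan of pericytes and oligodendrocyte precursors, varied least, with all 22 libraries between 6.72 and 7.73 log2 CPM. Its values were 7.12, 6.78, 6.73, 6.77 and 7.07 in cold brown, 6.72, 6.75, 6.84, 6.77 and 6.93 in warm brown, and 7.70, 7.60, 7.68 and 7.73 in cold beige. They were 7.20, 7.37 and 7.07 in warm beige and 7.02, 7.65, 7.30, 7.42 and 7.65 in warm white. Each group overlapped the next in the order, but cold beige lay above warm beige in every library. Cspg4 fell by 0.46 ± 0.12 in beige cells on warming (limma, adjusted p = 0.00191) and was at -0.09 ± 0.10 in brown cells (adjusted p = 0.427). Schwann cell markers, of which 5 were measured, had sums of 393.1 to 432.28 CPM in cold beige and 132.53 to 138.75 CPM in warm beige, and their part in the fall of Cspg4 was not tested.

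Mcam, an adhesion molecule of endothelial and mural cells also known as CD146, followed temperature and depot with little scatter. Its values were 4.05, 2.80, 2.59, 3.37 and 3.74 log2 CPM in cold brown, 6.29, 6.63, 6.51, 6.59 and 6.40 in warm brown, and 5.70, 5.47, 6.12 and 5.95 in cold beige. They were 8.79, 8.97 and 8.53 in warm beige and 9.01, 9.19, 9.13, 8.86 and 8.83 in warm white. From cold brown to cold beige, warm brown and warm beige no group overlapped the next, and warm beige overlapped warm white. Mcam rose 7.75-fold in beige cells (2.95 ± 0.24; limma, adjusted p = 1.73e-10) and 9.03-fold in brown cells (3.17 ± 0.20; adjusted p = 2.82e-12), and the 2 effects differed by -0.22 ± 0.31 (adjusted p = 0.58).

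Rewarming of inguinal fat was read from warm against cold beige libraries. Of the 9 genes 6 rose and 1 fell, against 36.0% of all rows that rose and 36.9% that fell. The share of genes called either way was 72.9% over all rows, so that a gene is called there is no mark of this list. Without cold beige 1 and 4 the counts were 7 higher and 1 lower, since Rgs5 then passed. In that setting 7881 of the 11603 rows were called, 49.1% of them higher. The median log2 fold change was 2.19 for the 9 genes and 0.03 for all rows. In 7 genes every warm library lay above every cold one, which held for 32.9% of all rows, and for Cspg4 every warm library lay below, which held for 33.5%. Markers of other cell types moved too: 13 of 18 endothelial, 11 of 14 fibroblast, 12 of 12 skeletal muscle and 4 of 8 macrophage markers rose and 0 of each fell. Their summed levels ran from 239.79 to 518.07 CPM in cold beige and 731.11 to 1108.7 CPM in warm beige for endothelium, from 1691.6 to 2167.1 and 8341.2 to 12301 CPM for fibroblasts, and from 18.162 to 49.874 and 90.237 to 488.39 CPM for skeletal muscle. No endothelial or fibroblast marker was at the floor in these libraries, and the part of other cells in the result was not tested.

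Floor values in the table split the libraries into 2 sets that the labels do not name, and cold beige 1 and 4 form one arm of the smaller set. Within set 2 (cold beige 2 and 3, warm beige 1 and 2) all 9 genes were called, 8 higher and 1 lower. Of all 11603 rows 7929 were called within set 2, 49.3% of them higher. Within set 1 (cold beige 1 and 4, warm beige 3 alone) fewer were called than in set 2, among the 9 genes and over all rows. The differences there ran from -0.88 for Rgs5 to 2.705 for Mcam. Acta2 stood at 1.33 ± 1.40 in set 1 against 5.42 ± 1.48 in set 2. Rgs5 had opposite signs in the sets, with -0.88 ± 0.95 in set 1 and 2.31 ± 0.69 in set 2 (adjusted p = 0.0104), and the difference between sets was not tested. Set, and the high mural level of cold beige 1 and 4, cannot be told apart in this group.

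In brown fat, where the same question is put to interscapular cells, 3 of the 9 genes rose (Myh11, Notch3 and Mcam) and Mylk fell, against 41.2% and 30.1% of all rows (71.3% either way). Every warm library lay above every cold one only for Mcam (35.3% of all rows) and below only for Mylk (27.6%). The median was 0.86 for the 9 genes and 0.13 for all rows. Without cold brown 1 and 5 the counts were 6 higher and 1 lower, since Acta2, Pdgfrb and Rgs5 then passed the test. In that setting 7902 of the 11603 rows were called, 59.1% of them higher. Within set 2, which keeps cold brown 5, 3 rose and 1 fell, against 7851 of all rows called, 57.6% of them higher. Within set 1, which keeps cold brown 1, 1 rose and 1 fell, against 5050 rows called, 57.9% of them higher. Beside this, 6 of 18 endothelial and 12 of 14 fibroblast markers rose and 0 fell. Endothelial sums ran from 76.938 to 264.49 CPM in cold brown and from 175.42 to 299.51 CPM in warm brown, so that cold brown 1 and 5 reached the warm range. Fibroblast sums did not overlap, at 74.336 to 143.42 and 596.6 to 769.59 CPM.

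The difference between the warming effects passed the test for 2 of the 9 genes, Tagln and Mylk, both higher in beige, against 14.8% of all rows called higher, 32.4% called lower and 47.2% either way. For Acta2 it was 2.04 ± 1.48 (limma, adjusted p = 0.272), for Myh11 1.23 ± 0.74 (0.18) and for Notch3 0.87 ± 0.63 (0.272). After quantile normalization, which moved the median of all rows by 0.21, these 3 passed as well, and with 1 CPM added Acta2 and Myh11 did. Without cold brown 1 and 5 they shrank to 0.20, 0.16 and 0.03, and the genes called were Tagln and Mylk higher and Cspg4 and Mcam lower. Of all rows 5111 were called in the absence of those 2 libraries, 29.6% of them higher. Leaving out cold brown libraries in which a gene is high lowers this difference by the choice itself, and leaving out such cold beige libraries raises it. Without cold beige 1 and 4 it was 3.28 for Acta2, 1.65 for Myh11 and 1.56 for Notch3. With both pairs left out it was 1.44, 0.57 and 0.72, and these genes were not called in either setting. The size of their difference therefore changes with the cold libraries kept, and their calls change with the scaling.

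**Figure D2:**
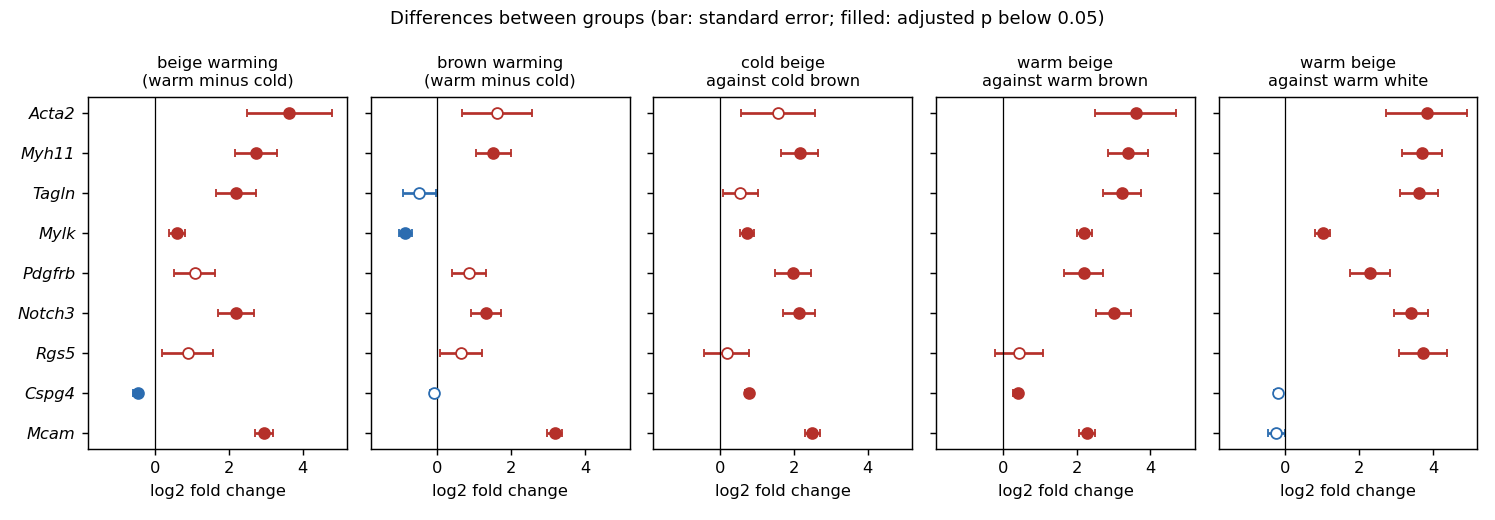
Log2 fold change (horizontal axes) of the 9 genes in 5 comparisons, with limma's standard error; filled points have an adjusted p below 0.05, red points lie above 0 and blue points below it. In warm beige against warm brown every gene except Rgs5 is called higher, and in warm beige against warm white every gene except Cspg4 and Mcam is.

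Cold beige was compared with cold brown libraries to set the depots side by side before rewarming. Of the 9 genes 6 were higher in cold beige and 0 lower, against 34.7% and 27.2% of all rows (61.9% either way). They were Mcam (2.50 ± 0.21), Myh11 (2.16 ± 0.50), Notch3 (2.14 ± 0.43), Pdgfrb (1.98 ± 0.49), Cspg4 (0.78 ± 0.11) and Mylk (0.74 ± 0.19). Acta2 at 1.57 ± 1.00, Tagln at 0.55 ± 0.47 and Rgs5 at 0.18 ± 0.60 did not pass (limma, adjusted p = 0.181, 0.318 and 0.806). Without cold brown 1 and 5 all 9 were called higher, with Acta2 at 3.41, Myh11 at 3.24, Pdgfrb at 3.06 and Notch3 at 2.98. In that setting 6486 of the 11603 rows were called, 57.9% of them higher. Without cold beige 1 and 4 Notch3 was at 1.45, Acta2 at 0.33, Tagln at -0.34 and Rgs5 at -0.89, and Mylk lost its call (0.50 ± 0.23; adjusted p = 0.0717). In only 3 genes, Mylk, Cspg4 and Mcam, did every cold beige library lie above every cold brown one, as 29.3% of all rows did, and in 0 did every one lie below (24.9%). Endothelial markers were higher in 15 of 18 cases and fibroblast markers in 14 of 14, with 0 lower.

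The depots were set side by side again after rewarming. Against warm brown, 8 of the 9 genes were higher in warm beige and 0 lower, against 35.3% and 40.1% of all rows (75.5% either way). These 8 did not overlap between the groups, as 32.5% of all rows did in that direction and 37.5% in the other. The largest were Acta2 (12.2-fold, 3.60 ± 1.09), Myh11 (10.5-fold, 3.39 ± 0.55), Tagln (9.37-fold, 3.23 ± 0.52) and Notch3 (8.01-fold, 3.00 ± 0.46). Mcam, Mylk and Pdgfrb were 2.28 ± 0.23, 2.21 ± 0.20 and 2.20 ± 0.53 higher, and Cspg4 0.41 ± 0.12. Rgs5 was at 0.44 ± 0.66 (limma, adjusted p = 0.551). Within set 1, which holds 1 warm beige and 2 warm brown libraries, the differences ran from 0.225 for Rgs5 to 3.23 for Myh11. Endothelial markers were higher in 15 of 18 cases, fibroblast markers in 14 of 14 and skeletal muscle markers in 12 of 12.

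Warm beige and warm white libraries both came from inguinal fat at 30 °C and differed, by the stated treatment, in whether the mice had passed through cold. The NuTRAP line behind each library is not stated, so any difference of line between these groups cannot be told apart from cold history. The titles and the column names call the white libraries warm, but their descriptions carry the word rewarm, and the stated treatment was followed here. Of the 9 genes 7 were higher in warm beige and 0 lower, against 17.0% and 22.4% of all rows (39.4% either way). The 7 did not overlap between the groups, as 12.4% of all rows did in that direction and 16.7% in the other. This comparison and the 2 others with warm beige share its 3 libraries, so they are not independent of one another. Acta2 was 14.2-fold higher (3.83 ± 1.09), Rgs5 13.3-fold (3.73 ± 0.66), Myh11 13.0-fold (3.70 ± 0.55), Tagln 12.3-fold (3.62 ± 0.52) and Notch3 10.5-fold (3.40 ± 0.46). Pdgfrb was 4.90-fold higher (2.29 ± 0.53) and Mylk 2.01-fold (1.01 ± 0.20). Cspg4 at -0.19 ± 0.12 and Mcam at -0.24 ± 0.23 did not pass (limma, adjusted p = 0.2 and 0.419). The median was 3.40 for the 9 genes and -0.04 for all rows. All 18 endothelial markers were higher too, with sums of 731.11 to 1108.7 CPM in warm beige and 76.185 to 114.04 CPM in warm white, where 1 marker was at the floor in each of warm white 2 and 5. Of 14 fibroblast markers 6 were higher and 3 lower, with sums of 8341.2 to 12301 and 12456 to 14953 CPM. Gsn, 1 of the 3 lower, was the largest term of these sums, so they mainly follow that gene. Its mean was 12.4 log2 CPM in warm beige and 13.2 in warm white. Skeletal muscle sums were 90.237 to 488.39 CPM in warm beige and 34.195 to 57.874 CPM in 4 of the 5 warm white libraries, all below warm beige, while warm white 2 stood at 1013.8 CPM. Their part in the result was not tested.

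The 9 genes were compared with one another by the mean absolute difference between their values over 22 libraries, each gene first centred on its own mean. Notch3 and Myh11 were the closest pair at 0.26 log2 units, followed by Notch3 with Pdgfrb at 0.41, Mylk with Cspg4 at 0.44 and Myh11 with Pdgfrb at 0.53. Rgs5 and Mcam were the farthest apart at 2.45, being lowest and highest in warm white. Mcam was no closer than 1.44 to any of the other 8.

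Among all other rows, those most like each gene by the same measure differed from member to member. For Notch3 they were Esam (0.30), an adhesion molecule of endothelial cells, Fam189a2 (0.35) and Cpe (0.36), and for Myh11 they were Cpe (0.40), Il17rd (0.42) and Esam (0.44). For Pdgfrb they were Fmnl3 (0.27), Eps8 (0.29) and Arhgef15 (0.32). Rgs5 was closest to Gpihbp1 (0.42), which anchors lipoprotein lipase on capillary endothelium, Cdh5 (0.44), the cadherin of endothelial junctions, and the pericyte gene Ndufa4l2 (0.45). Acta2, with the widest range, was closest to Olfr558 (0.83), Cpe (0.84) and Exoc3l2 (0.89), and Tagln to Tm4sf1, Sema7a (both 0.44) and Spns2 (0.49). The rows most like Mcam were H2-T23 (0.19), a class I histocompatibility gene, B3galnt1 (0.25) and Cfd (0.32), which encodes the adipocyte product adipsin. Mylk was closest to Dpysl2 (0.30), Acbd4 (0.31) and Arhgap31 (0.33), and Cspg4 to Pex11g, Sardh and Vps13c (each 0.15). For comparison, the median over all rows was 1.18 from Notch3, 1.79 from Mcam and 0.59 from Cspg4.

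**Figure D3:**
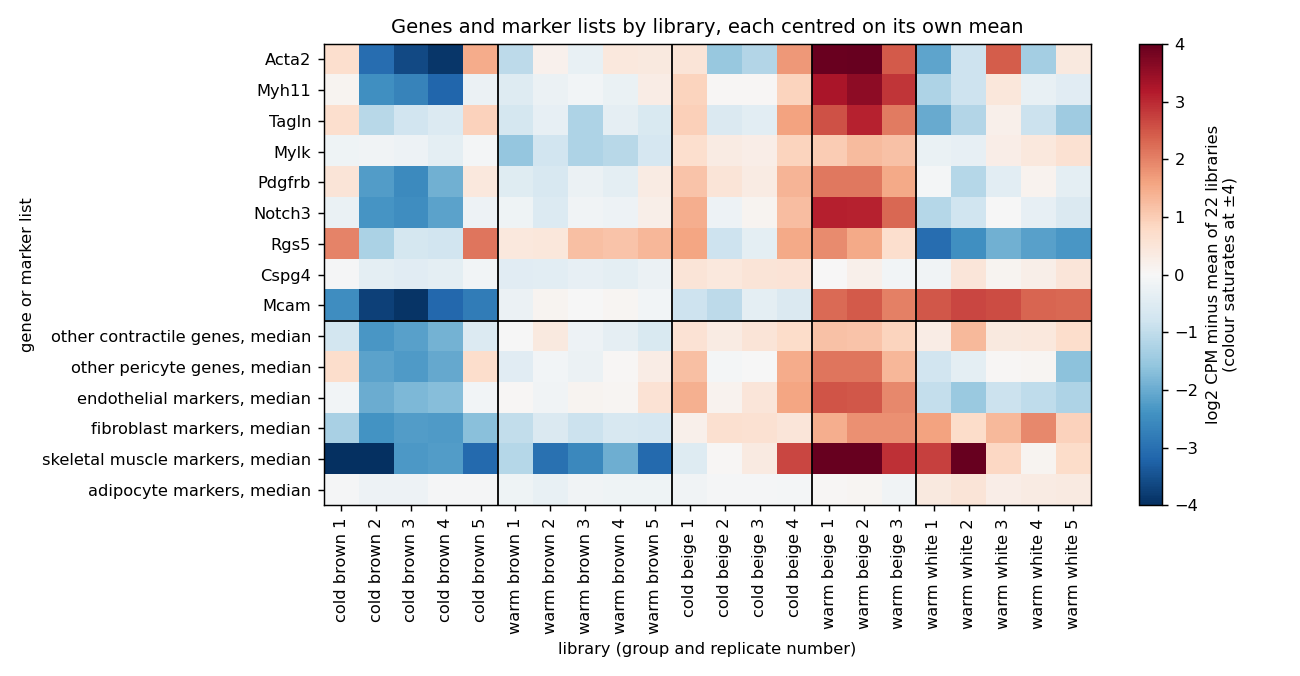
Values of the 9 genes (upper rows) and the median of 6 marker lists (lower rows) in the 22 libraries (columns, by group and replicate number), in log2 CPM minus each row's mean, with colour saturating at 4 units either way. Cold brown 1 and 5 and cold beige 1 and 4 stand out from their groups in Acta2, Rgs5 and the pericyte and endothelial medians, and the adipocyte median is nearly even.

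Other genes of the contractile machinery were taken from a list of 26, of which 20 were measured. In beige cells on warming 12 rose and 1 fell, against 36.0% and 36.9% of all rows, and in brown cells 11 rose and 2 fell, against 41.2% and 30.1%. Tpm2, a tropomyosin of smooth and skeletal muscle, rose by 3.90 ± 1.04 in beige cells. It moved with the skeletal muscle markers by library, at 6.20, 6.24 and 4.28 log2 CPM in warm beige 1 to 3, where those markers summed to 488.39, 456.74 and 90.237 CPM, and at 5.19 in warm white 2 against -0.34 to 1.27 in the other white libraries, and their part was not tested. In beige cells Lmod1, leiomodin, which nucleates actin in smooth muscle, rose by 3.36 ± 1.03, and Sncg, gamma-synuclein, which adipocytes also make, by 3.56 ± 0.39. Des, the intermediate filament desmin of muscle and pericytes, went the other way and fell by 1.75 ± 0.37 in beige and by 0.77 ± 0.31 in brown cells. In brown cells Smtn, smoothelin, rose by 1.42 ± 0.26 and Synpo2 fell by 1.00 ± 0.26. Against warm white, 12 of the 20 were higher in warm beige and 3 lower, against 17.0% and 22.4% of all rows. Lmod1 was 4.56 ± 0.98 higher, with warm white 2 at the floor (-5.94 log2 CPM) and the other white libraries at -1.40 to 0.72, below the 2.59 to 3.30 of warm beige. Myl9, the regulatory light chain, was 5.35 ± 1.25 higher, with 2 warm white libraries at the floor. Both sizes depend on those floor values.

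Of 20 further pericyte genes 16 were measured, and 6 rose in beige and 9 in brown cells on warming, with 0 falling. Over all rows 36.0% rose in beige cells, so the 6 of 16 lie at the background share, and 41.2% rose in brown cells. Steap4, a metalloreductase that adipocytes also make, rose by 3.10 ± 0.21 in beige and 3.75 ± 0.17 in brown cells. Ednra, the endothelin receptor of mural cells, rose by 2.07 ± 0.68 and 1.95 ± 0.57. Kcnj8, a subunit of the potassium channel of pericytes, split the cold libraries as Rgs5 did: it was at 3.80 and 4.01 log2 CPM in cold brown 1 and 5 and between 0.20 and 1.23 in the other 3, and at 3.42 and 3.93 in cold beige 1 and 4 and 0.63 and 1.55 in the other 2. Its partner Abcc9 stood at 5.22 and 5.00 in cold brown 1 and 5 and at 1.92 to 2.23 in the rest, but was high in all warm white libraries (5.47 to 6.60), where Kcnj8 did not exceed 0.50. These 2 genes were named after their values were seen. Against warm white, 12 of the 16 were higher in warm beige, against 17.0% of all rows, and Ednra was lower (-1.66 ± 0.65), with Rgs4 at 3.95 ± 0.64, the Notch target Heyl at 3.90 ± 0.44 and Ndufa4l2 at 3.64 ± 0.50.

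Among 17 regulators of mural genes 14 were measured, of which 9 rose and 3 fell in beige cells and 8 rose and 2 fell in brown cells on warming. Calls either way were made for 72.9% and 71.3% of all rows, near the share of this list in brown cells. Foxc1, a forkhead factor of the vessel wall, rose by 2.38 ± 0.59 in beige cells, and the Notch targets Hey2 and Hes1 rose by 2.22 ± 0.65 and 1.90 ± 0.48 there and by 1.72 ± 0.53 and 1.49 ± 0.40 in brown cells. Srf, serum response factor, fell by 0.52 ± 0.16 in brown cells. In beige cells its mean was 5.96 ± 0.10 log2 CPM (SD) in the cold and 6.20 ± 0.18 after warming, which did not pass (limma, adjusted p = 0.26). Tbx18, a T-box factor used to mark mural cells, was 3.64 ± 0.28 higher in warm beige than in warm white and 3.01 ± 0.28 higher than in warm brown.

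Of 20 ligands and receptors that act on mural cells 18 were measured, with 11 rising and 3 falling in beige cells and 10 rising and 2 falling in brown cells on warming, in total near the 72.9% and 71.3% of all rows called either way. The Notch ligand Dll1 rose by 2.74 ± 0.48 and 2.14 ± 0.40, the PDGF chain Pdgfa by 1.65 ± 0.24 and 2.66 ± 0.20, and Angpt1, the angiopoietin that mural cells supply to the endothelial receptor Tek, by 1.74 ± 0.13 and 3.38 ± 0.11. Pdgfd, a second ligand of Pdgfrb, fell by 1.35 ± 0.32 in beige cells and rose by 1.60 ± 0.26 in brown cells, a difference of -2.95 ± 0.41 (limma, adjusted p = 3.81e-06). In warm beige Pdgfd was 3.97 ± 0.30 below warm brown, whereas Notch1 was 2.71 ± 0.16 above it.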

How the data were processed

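Ribosome-bound mRNA of 22 libraries was pulled down with an antibody against GFP, depleted of ribosomal RNA and made into Nextera XT libraries, per the labels' protocols. The 36 chromatin samples were not analysed here. The authors deposited log2 CPM values, a unit read from the table. The submitters' processing notes name HISAT2, Picard, featureCounts, edgeR and mm10. Their roles, the gene models counted and strandedness are not given in the sources used here, so reads of overlapping or similar genes, such as the actins, may be shared. Values at or below -5 were treated as a floor. Rows at the floor throughout a depot (9 in brown, 2 in inguinal fat) separated 10 from 12 libraries, and with the sets joined across depots a set term beside the groups was at most 0.005 log2 units in every row, so that the deposited values hold almost no mean difference between sets. How they came to is not given in the sources used here.

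A limma-trend model (limma 3.58.1, R 4.3.3) with 5 group means was fitted to the 22 libraries, leaving 17 residual degrees of freedom (16 if a set term were counted). Two-sided p-values were Benjamini-Hochberg adjusted across the 11603 rows, and genes under 0.05 were called. No filter was applied, and the fit was tested on simulated data. Alternatives changed the scale, filter, normalization, weights, samples, sets and blocks. Text names the 9 matched genes, the 3 rows most like each and, from each list described, called genes among the 4 largest changes in a direction with a group mean of at least 0 log2 CPM. Outside this rule, Kcnj8, Abcc9 and the uncalled Srf value in beige cells were chosen after their values were seen, as were values given to show a marker or a floor. Of several rows for a symbol the one with the highest mean was used. Members, lists and rules were chosen with earlier results of these data known. Sequences are from RefSeq, GRCm38.p6.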

Additional observations from a re-analysis of the deposited data

Results flagged for a closer look

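A test of the difference between the beige and brown warming effects picked out 2 of the 9 genes. Tagln differed by 2.67 log2 units (n = 3 warm and 4 cold beige, 5 warm and 5 cold brown libraries; limma, adjusted p = 0.00321), with every warm beige library above every cold beige one and the brown groups overlapping. Mylk differed by 1.48 (adjusted p = 0.000136), with every warm library higher in beige and every warm library lower in brown cells. Both calls were lost within set 1, which holds a single warm beige library (Tagln 1.10 and Mylk 1.41), and both held within set 2 (3.94 and 1.60). Set 2 leaves out cold beige 1 and 4, the highest cold beige libraries for both genes, which by itself raises the difference there. In the 36 combinations of a gene and a group of 4 or 5 libraries, 0 held a single library far from the others by Dixon's criterion, which cannot see a pair such as cold brown 1 and 5.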

How the results depend on the processing

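Of the values of single genes under the alternatives, 1113 kept their direction and their side of the threshold, 35 gained a call, 21 lost one and 28 turned sign, none of these last being called before or after. Within set 1, where the 1 warm beige library is assumed to vary like the other groups, the genes called numbered 1 in beige warming, 2 in brown warming, 0 in the difference of warming effects (limma; Mylk, 1 gene, at an unadjusted p under 0.05), 5 in warm beige against warm brown and 4 against warm white. All rows called fell there too, from 8453 to 5255 in beige warming, 8274 to 5050 in brown warming, 5477 to 1969 in the difference, 7184 to 3710 in cold beige against cold brown and 4572 to 1304 in warm beige against warm white, a comparison with 3016 calls when only its groups were fitted. Without cold brown 1 and 5, chosen after seeing the data, 7 were called in brown warming and 4 in the difference, against 7902 and 5111 of all rows. In the difference 4 were called with 1 CPM added and 5 after quantile normalization, against 5739 and 6237 of all rows. Leaving out each library in turn gave 7 to 7 calls in beige warming, 4 to 6 in brown warming, 2 to 3 in the difference, 6 to 7 in cold beige against cold brown, 8 to 8 in warm beige against warm brown and 7 to 8 against warm white. Calls over all 11603 rows then ran from 7941 to 8245 in beige warming and from 7953 to 8172 in brown warming. In the difference they ran from 5057 to 5455, and between the cold groups from 6607 to 6966. For warm beige they ran from 8332 to 8653 against warm brown and from 3830 to 4433 against warm white. Acta2 and Pdgfrb gained their brown warming calls without cold brown 1 (2.20 and 1.28) and without cold brown 5 (2.40 and 1.25). Pdgfrb passed in beige warming under quantile normalization, a common total, both blocks, only the groups compared and set 2. Where no cause is named, the cause was not tested.

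Signs turned as follows. In set 1 Rgs5 was at -0.88 in beige warming, and in the difference Pdgfrb was at -0.015 and Rgs5 at -0.95. In brown warming Cspg4 was at 0.060 with a common total, and without cold brown 1 and 5 Cspg4 was at 0.042 and Tagln at 0.15. In the difference Mcam was at 0.28 after quantile normalization, Pdgfrb at -0.86 and Rgs5 at -0.94 without cold brown 1 and 5, and Pdgfrb at -0.44 without cold beige 1 and 4 as well. Between the cold groups Tagln was at -0.23 after quantile normalization, -0.37 in set 2 and -0.34 without cold beige 1 and 4, and Rgs5 at -0.22 with library weights, -0.84 in set 2 and -0.89 without cold beige 1 and 4. Leaving out single libraries moved Pdgfrb from -0.20 to 0.56 and Rgs5 from -0.21 to 0.64 in the difference, and Rgs5 from -0.20 to 0.65 between the cold groups.

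A replicate block was set by title number or by library number. With either, 8 mural genes were called in beige warming, 4 in brown warming and 2 in the difference. Of the 11603 rows 8352 and 8332 were called in beige warming, 8267 and 8196 in brown warming, and 5331 and 5305 in the difference. Mural calls numbered 6 between the cold groups, 8 in warm beige against warm brown and 7 against warm white. All-row calls were 7080 and 6885, 8675 and 8588, and 4214 and 4273 in those comparisons. Deviations of same-numbered libraries correlated at -0.15 to 0.35 and in no pair of groups all exceeded 0.1, so the numbers were not taken to pair libraries. Scaling moved the median of all rows by 0.15 with a common total in both warming effects, by -0.14 after quantile normalization and -0.11 with median-of-ratios scaling in brown warming, by 0.21 and 0.15 with these in the difference, and by -0.10 with the latter between the cold groups. The share of calls that were higher went from 31.3% to 49.7% and 46% in the difference and from 56% to 45.8% between the cold groups. Depth is unknown, so no counting interval could be given.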
